A study of Mus musculus with 4 samples.

Results

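The genes described here encode matrix metalloproteinases (MMPs) and their natural inhibitors, the tissue inhibitors of metalloproteinases (TIMPs). They are the 6 MMP genes Mmp3, Mmp9, Mmp10, Mmp13, Mmp14 and Mmp15 and the 3 TIMP genes Timp1, Timp2 and Timp3, found by symbol among the 25814 genes that the tables list for each library. Their RNA was compared between cultured keratinocytes (KCs), the cells that build the epidermis, of 2 labelled genotypes: wild type (WT) and Nfat5-/-, in which the gene of the osmotically controlled transcription factor NFAT5 is disrupted. The study addressed how NFAT5 affects transcription and protein secretion by KCs, including that of matrix proteinases. All mice were adult animals of the 129/sv strain, and the WT mice were siblings of the Nfat5-/- mice. Tails were kept on ice overnight before the epidermis was separated with dispase, and the cells were grown untreated in serum-free medium with low Ca++. There were 2 libraries of each genotype, which the study describes as KCs of WT and Nfat5-/- sibling mice and the series as independent experiments, and the labels name no batch or date. The labels name no driver that would restrict the Nfat5 disruption to KCs.

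MMPs are zinc-dependent enzymes that cut collagens, laminins and other proteins of the extracellular matrix, and some also release growth factors and surface proteins. Most are secreted as inactive zymogens in which a cysteine of the pro-domain covers the zinc, and they become active when other proteases remove that domain. TIMPs bind the active site and block it. In skin, several MMPs are known for their induction in KCs at wound margins, where the cells leave the basement membrane and migrate.

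Mmp3, Mmp10 and Mmp13 lie in a cluster of MMP genes on chromosome 9, and their start regions are printed because the data below cover the cluster gene by gene and because they share a motif that the other members with an entry lacked. RefSeq windows of 300 bases around the transcription start, on GRCm38.p6, were found for 8 of the 9 members, all but Mmp9. The AP-1 motif TGAGTCA, searched on both strands (TGACTCA on the other), is the binding sequence of FOS and JUN proteins. It was present in 3 of the 8 windows, those of Mmp3, Mmp10 and Mmp13, and in 5.20% of 32851 windows of all genes. Each line below holds the 120 bases before the start on the plus strand, 5′ to 3′, with the motif in capitals.
Mmp13, chr9:7272394-7272513: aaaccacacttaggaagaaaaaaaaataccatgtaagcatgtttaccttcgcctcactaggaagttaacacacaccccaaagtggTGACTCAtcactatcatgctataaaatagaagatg
Mmp3, chr9:7445702-7445821: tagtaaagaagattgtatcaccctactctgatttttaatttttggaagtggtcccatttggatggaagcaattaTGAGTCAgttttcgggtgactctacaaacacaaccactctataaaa
Mmp10, chr9:7502222-7502341: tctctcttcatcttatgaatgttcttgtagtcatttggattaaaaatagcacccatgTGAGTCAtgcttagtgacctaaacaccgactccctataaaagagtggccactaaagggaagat
The motif lay 35 bases upstream of the start in Mmp13, 46 in Mmp3 and 63 in Mmp10, and a TATAAA followed it in each. No match was found in the windows of Mmp14, Mmp15, Timp1, Timp2 and Timp3. A match describes these letters in this window and not a bound site.

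Mmp3 and Mmp10 encode stromelysins, close relatives that cut laminin, fibronectin and other MMP zymogens. Their coding sequences share a longest identical stretch of 104 bases, which spans exons 2 and 3 of 10 in both genes. It lies within chr9:7447092-7447285 for Mmp3 and chr9:7503305-7503498 for Mmp10 on GRCm38, on the plus strand. It is shown because reads from it cannot be assigned to one gene or the other, and its capitals mark the 7 codons of the cysteine switch, the pro-domain motif that covers the zinc.
Mmp3 and Mmp10: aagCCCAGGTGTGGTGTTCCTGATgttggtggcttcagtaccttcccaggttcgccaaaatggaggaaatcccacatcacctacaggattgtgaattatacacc
Of all windows of 59 bases in the Mmp3 transcript, 6.48% occurred also in Mmp10, and 6.79% of those of Mmp10 occurred in Mmp3. Between 92.4% and 100% of the exon reads of Mmp3 and between 88.5% and 96.2% of those of Mmp10 were placed at a single site.

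The libraries held between 16219445 and 23494436 gene reads. Those of the same genotype differed by more than counting noise (chi-square over its degrees of freedom of 16.7 in WT and 17.3 in Nfat5-/-), so none was a repeat deposit of another and each was counted once. This does not show whether they differ by culture or by library preparation. Reads of Nfat5 itself, 408 and 929 in WT against 715 and 770, did not separate the labels (log2 fold change 0.09, edgeR adjusted p 0.913), and each direction below rests on the labels. Reads summed over the whole gene would not show the loss of some exons. The 8 KC markers examined summed to between 11184 and 13014 RPKM (reads scaled to exon length and library size), among them Krt5 and Krt14, the keratins of basal KCs, and none of the 8 passed the edgeR test. Of these markers Krt15 had only 3 to 18 reads per library. Smooth muscle markers summed to 184 and 151 RPKM in WT and to 518 and 819 RPKM in the libraries labelled Nfat5-/-. All 4 of them that could be tested were higher there in the edgeR test (0.943% of all genes tested were), with Acta2 and Tagln the most abundant. Myh11, the smooth muscle myosin, had 1 read in each WT library, then 22 and 40 reads in the libraries labelled Nfat5-/- (log2 fold change 4.71, edgeR adjusted p 0.0435), and Des had 1 read in WT replicate 1 and 0 in the others. Fibroblast markers, a cell type that makes several MMPs and TIMPs, summed to 4.58, 2.12, 5.79 and 9.82 RPKM in the order WT 1, WT 2, Nfat5-/- 1, Nfat5-/- 2, most of it Vim. Of the 8 fibroblast markers, Col1a2, Col3a1, Dcn and Lum had at most 6 reads in any library. The 4 that could be tested all had log2 fold changes above 0 (Thy1 2.65, Vim 1.25, Pdgfra 0.78 and Col1a1 0.74). In RPKM, Thy1, Vim and Pdgfra did not overlap between genotypes, where 21.6% of all genes tested were separated in that direction. Of the 4, 0 passed the edgeR test (lowest adjusted p 0.102), against 0.943% of all genes tested called higher. Melanocyte markers went the other way, with sums of 7.29 and 6.99 RPKM in WT against 2.04 and 2.89 RPKM in Nfat5-/-. Of 4 tested, Tyrp1 passed as lower (log2 fold change -2.04, edgeR adjusted p 0.0203), as did 0.325% of all genes tested. Mlana, which was not tested, had 6 to 12 reads. Endothelial markers summed to at most 0.777 RPKM. In bulk samples, fewer cells of a type and less RNA per cell cannot be told apart, and the part of these other cell types in the results below was not tested.

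The members fell into a high and a low set by RNA level per length, as the plot of levels by library shows. Over the 4 libraries, Timp2 averaged 52.6 RPKM, Mmp14 38.5, Timp3 34.1, Mmp9 28.6 and Timp1 25.4, while Mmp15 averaged 2.30, Mmp3 2.11, Mmp10 1.94 and Mmp13 0.729. Every library had Timp1, the lowest of the high set, above Mmp15, and every library had Timp2 above Mmp14 and Mmp10 above Mmp13. The neighbours Mmp14 and Timp3, Timp3 and Mmp9, Mmp9 and Timp1, Mmp15 and Mmp3, and Mmp3 and Mmp10 kept their order in only 3, 2, 1, 2 and 3 of the 4 libraries, so their ranks lay within the spread between libraries. Mmp3 varied most, 14.5-fold between its lowest and highest library, followed by Mmp13 (3.45-fold) and Mmp9 (3.40-fold). Mmp14 (1.26-fold), Mmp10 (1.31-fold) and Timp1 (1.44-fold) varied least.

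**Figure D1:**
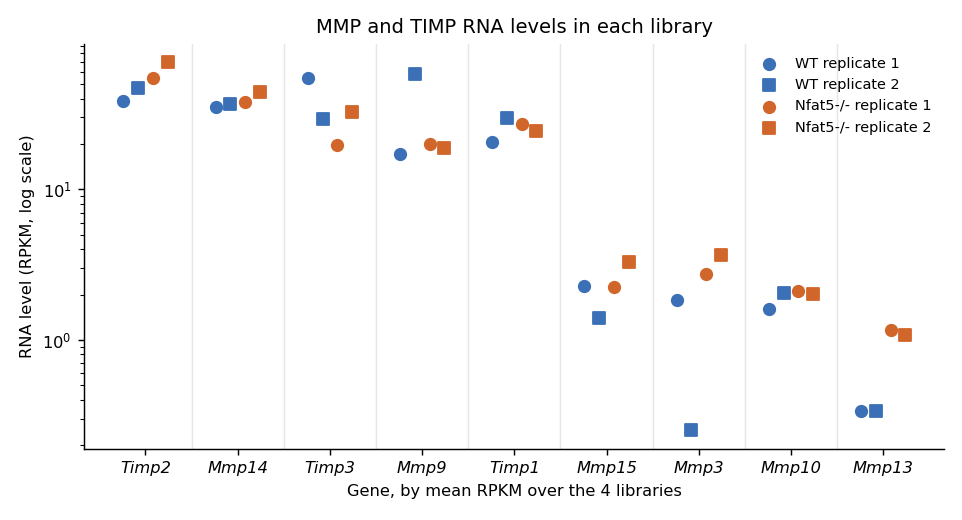
RNA level of each member in RPKM on a log axis, with 1 point for each of the 4 libraries (WT in blue, Nfat5-/- in orange, circles for replicate 1 and squares for replicate 2). Mmp3 in WT replicate 2 (0.251 RPKM) and Mmp9 in WT replicate 2 (58.4 RPKM) stand apart from the other libraries, and the WT and Nfat5-/- pairs of Mmp13 each lie tightly together at different levels.

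In the edgeR comparison of the labelled genotypes, all 9 members had enough reads to be tested and 1, Mmp13, was higher in the libraries labelled Nfat5-/-, while none was lower. Among all 12614 genes tested, 0.943% were called higher and 0.325% lower. Of the members, 7 had a log2 fold change above 0 and 2 below, with a median of 0.22 against -0.01 over all genes tested, and 3 (Mmp3, Mmp13 and Timp2) had an unadjusted p under 0.05, as did 14.6% of all genes tested. The RPKM values of the genotypes did not overlap for Mmp3, Mmp13, Mmp14 and Timp2, each higher in the libraries labelled Nfat5-/-, whereas 21.6% of all tested genes were separated in that direction. Without a filter on low counts 6 members passed the edgeR test, when 6.3% of all genes did. With 2 libraries of each genotype, the p-values rest on the spread between these samples.

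Mmp13 encodes collagenase 3, which cuts fibrillar collagen and is made by KCs at wound edges. It is listed on chromosome 9, 7272514 to 7283331 of GRCm38, with 10 exons. The RNA level was 0.338 and 0.338 RPKM in WT replicates 1 and 2 (15 and 20 reads) and 1.16 and 1.08 RPKM in Nfat5-/- replicates 1 and 2 (76 and 55 reads). Both libraries labelled Nfat5-/- were above both WT libraries, and the replicates of each genotype lay close together. The means were 0.338 ± 0.000233 and 1.12 ± 0.0616 RPKM (SD, n = 2 each), and the log2 fold change was 1.76 (SE 0.30, edgeR adjusted p 0.0463). All exon reads of Mmp13 were placed at a single site. The call lay near the threshold. With a library left out, 1 genotype is a lone sample that is assumed to vary like the pair of the other genotype, here and for each such value below. With each library left out in turn the log2 fold change stayed between 1.70 and 1.80, but the edgeR adjusted p rose to 0.0633 without WT replicate 1, 0.0544 without WT replicate 2, 0.188 without Nfat5-/- replicate 1 and 0.290 without Nfat5-/- replicate 2. With a block for the replicate number it was 0.0846, and the adjusted p ranged from 4.84e-05 to 0.290 over the 12 alternatives that could test the gene.

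Mmp3, stromelysin-1, can activate other MMP zymogens such as that of Mmp9. It is listed on chromosome 9, 7445822 to 7455975, with 10 exons. WT replicate 1 had 1.84 RPKM (55 reads) and WT replicate 2 had 0.251 RPKM (11 reads), while Nfat5-/- replicates 1 and 2 had 2.72 RPKM (119 reads) and 3.64 RPKM (125 reads). The genotypes did not overlap, but the WT libraries differed widely, and the lowest value was that of WT replicate 2. The means were 1.04 ± 1.12 RPKM in WT and 3.18 ± 0.647 RPKM in Nfat5-/- (SD, n = 2 each). The log2 fold change of 1.68 had an SE of 0.65 and did not pass the edgeR test (adjusted p 0.304). Its size rested on both WT libraries, being 0.81 without WT replicate 2 and 3.54 without WT replicate 1. As the gap between the WT libraries was known when Mmp3 was chosen, nothing is read from the tests with a lone WT library. The adjusted p ranged from 3.13e-07 to 0.835 over 15 alternatives.

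Mmp10, stromelysin-2, is known from KCs at the migrating front of wounds. It is listed on chromosome 9, 7502352 to 7510240, with 10 exons. Its RNA level was 1.61 and 2.05 RPKM in WT (51 and 82 reads) and 2.10 and 2.01 RPKM in Nfat5-/- (93 and 70 reads). WT replicate 2 lay between the libraries labelled Nfat5-/-, so the groups overlapped (log2 fold change 0.17, SE 0.24, edgeR adjusted p 0.799). Leaving out WT replicate 1 gave a log2 fold change of 0.05 and leaving out WT replicate 2 gave 0.31. Of the same libraries, WT replicate 2 held the lowest Mmp3 value and a Mmp10 value within the range of the other libraries.

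Mmp9, gelatinase B, cuts denatured collagen and type IV collagen of basement membranes, and is listed on chromosome 2, 164940780 to 164955850, with 16 exons. Its RNA level was 17.2 and 58.4 RPKM in WT replicates 1 and 2 (962 and 4359 reads) and 20.0 and 18.8 RPKM in Nfat5-/- replicates 1 and 2 (1623 and 1206 reads). Only WT replicate 2 was high, and WT replicate 1 was the lowest of the 4 libraries, so the genotypes overlapped. The means were 37.8 ± 29.2 and 19.4 ± 0.880 RPKM (SD, n = 2 each), and the log2 fold change of -0.95 (SE 0.46) did not pass the edgeR test (adjusted p 0.405). The direction rested on 1 library: without WT replicate 2 the log2 fold change was 0.19, and without WT replicate 1 it was -1.56. Here too the gap between the WT libraries was known beforehand, and nothing is read from the tests with a lone WT library. Over 15 alternatives the edgeR, DESeq2 and limma adjusted p of Mmp9 ranged from 2.31e-11 to 0.872.

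Leukocytes, which Mmp9 is also known from, were followed with 7 marker genes, of which 6 were analysed here. Their summed level was 22.0, 15.3, 18.2 and 18.4 RPKM in the order WT 1, WT 2, Nfat5-/- 1, Nfat5-/- 2, mostly Cd68, a lysosomal gene that other cells express as well, and it was lowest in the library where Mmp9 was highest. Markers with few reads behaved otherwise. The pan-leukocyte gene Ptprc had 2, 22, 10 and 5 reads, Csf1r had 24, 55, 25 and 34, and Adgre1 had 9, 19, 14 and 8, each with most reads in WT replicate 2. Lyz2 had 36 reads there against 21 to 45 elsewhere, and Cd207, the Langerhans cell gene, had at most 1 read. None of 4 tested leukocyte markers passed the edgeR test between genotypes, and the part of these cells in the Mmp9 value was not tested.

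Mmp14 and Mmp15 encode membrane-bound MMPs, which stay at the cell surface. Mmp14 (chromosome 14, 54431612 to 54445364, 17 exons) cuts fibrillar collagen and, together with Timp2, activates the zymogen of Mmp2. It had 35.0 and 36.7 RPKM in WT against 38.1 and 44.2 RPKM in Nfat5-/- (3542, 4817, 5413 and 5124 reads). The groups did not overlap, but the difference was small (log2 fold change 0.22, SE 0.12, edgeR adjusted p 0.469). The log2 fold change was 0.36 without Nfat5-/- replicate 1 and 0.07 without Nfat5-/- replicate 2. Introns took 22.8% to 25.2% of its reads, against 1.79% to 1.97% of all gene reads. Mmp15 (chromosome 8, 95352268 to 95375080, 10 exons) had 2.27 and 1.40 RPKM in WT against 2.24 and 3.30 RPKM in Nfat5-/- (194, 159, 277 and 324 reads). WT replicate 1 and Nfat5-/- replicate 1 were nearly equal, and the log2 fold change was 0.62 (SE 0.28, edgeR adjusted p 0.372). Its log2 fold change was 1.01 without WT replicate 1, 0.30 without WT replicate 2 and 0.30 without Nfat5-/- replicate 2.

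Timp2 was the most abundant member by its mean over the 4 libraries, though below Timp3 in WT replicate 1 and below Mmp9 in WT replicate 2, and the one with the smallest edgeR p after Mmp13. The protein inhibits most MMPs and also serves as the adaptor between Mmp14 and the zymogen of Mmp2. The gene (chromosome 11, minus strand, 118301069 to 118355740, 7 exons) had 38.7 and 47.3 RPKM in WT replicates 1 and 2 (2510 and 4097 reads) and 55.0 and 69.5 RPKM in Nfat5-/- replicates 1 and 2 (5182 and 5185 reads). Both libraries labelled Nfat5-/- were above both WT libraries, with means of 43.0 ± 6.06 and 62.3 ± 10.2 RPKM (SD, n = 2 each). The log2 fold change of 0.56 (SE 0.16) had an edgeR unadjusted p of 0.00870 and an adjusted p of 0.166. Without Nfat5-/- replicate 1 the log2 fold change was 0.73, and without Nfat5-/- replicate 2 it was 0.36. DESeq2 gave the same size of change with an adjusted p of 0.0335, within a range of 0.000323 to 0.717 over 15 alternatives.

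Timp1, a secreted inhibitor that binds the zymogen of Mmp9, had 20.5 and 29.6 RPKM in WT against 27.0 and 24.4 RPKM in Nfat5-/- (304, 586, 579 and 417 reads). The libraries labelled Nfat5-/- lay between the WT libraries (log2 fold change 0.05, SE 0.18, edgeR adjusted p 0.930). The direction turned without WT replicate 1 (-0.18) and without Nfat5-/- replicate 1 (-0.0016). Timp3, the inhibitor that is bound to the matrix and also blocks the sheddase ADAM17, had 54.5 and 29.4 RPKM in WT against 19.8 and 32.6 RPKM in Nfat5-/- (4524, 3248, 2377 and 3097 reads). WT replicate 1 was the highest, while WT replicate 2 lay between the libraries labelled Nfat5-/- (log2 fold change -0.66, SE 0.32, edgeR adjusted p 0.405). Leaving out WT replicate 2 gave a log2 fold change of -1.04 with an edgeR adjusted p of 0.0418, a test in which the Nfat5-/- pair alone supplied the spread, against 9.91e-06 to 0.923 over 15 alternatives. Without WT replicate 1 it was -0.14, and without Nfat5-/- replicate 2 it was -1.08.

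Timp1 and Timp3 both lie inside genes on the opposite strand, and strand-specific counting is not stated. Timp1 (X chromosome, 20870166 to 20874735, plus strand, 9 exons) lies within Syn1, and Timp3 (chromosome 10, 86300372 to 86349506, plus strand, 7 exons) lies within Syn3, with overlapping exons. Only 40.9% to 46.2% of the exon reads of Timp1 and 5.20% to 6.32% of those of Timp3 were listed as unique exon reads, against 100% for Timp2. These are the reads called single-site in this text. Syn1 and Syn3, genes of synaptic vesicle proteins, had only 9 to 24 and 12 to 22 reads in the whole gene per library. Reads across splice junctions made up 42.2% to 47.6% of the exon reads of Timp1 and 5.33% to 6.40% of those of Timp3, nearly the same shares as the unique reads. For Timp1 and Timp3 a read outside that count thus need not map to a second site of the genome. Whether it falls in the overlap with Syn1 or Syn3 was not tested.

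**Figure D2:**
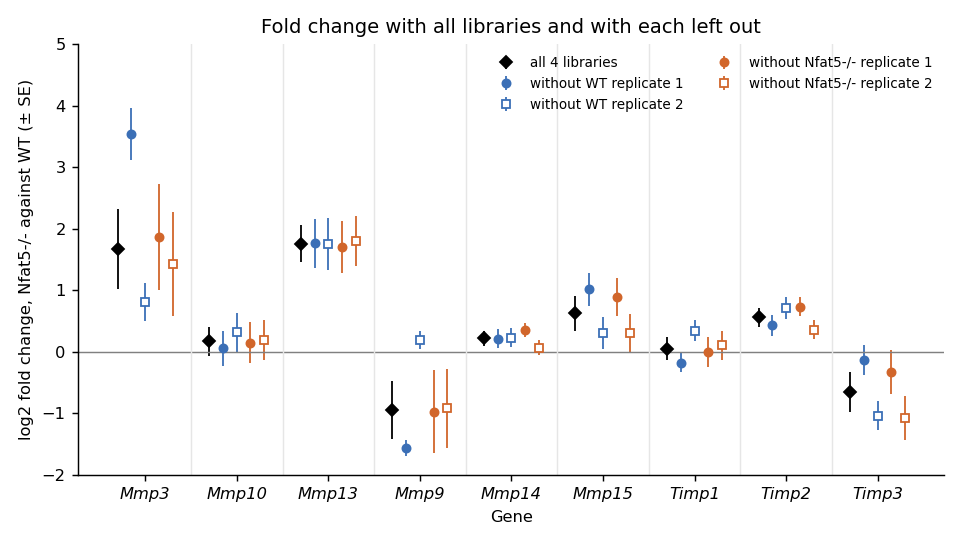
Log2 fold change of each member (Nfat5-/- against WT, edgeR, with the SE as bars), from all 4 libraries (black) and with each library left out in turn. Mmp13 stays between 1.70 and 1.80, Mmp3 moves between 0.81 and 3.54, and Mmp9 crosses 0 when WT replicate 2 is left out.

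The spread within a genotype was then described for each member. Mmp3 and Mmp9 were already known to differ between the WT libraries when the members were chosen, so their values are a description. They were the 2 of the 9 members past 2-fold between the WT libraries, where 3.22% of all genes tested were, and nothing is read from that count. Between the libraries labelled Nfat5-/-, 0 of the 9 members did so, against 2.01% of all genes. In TMM-scaled reads, Mmp3 in WT replicate 2 was 0.150 of its level in WT replicate 1 (95% interval 0.0706 to 0.289, exact binomial), or 6.69-fold lower. Mmp9 went the other way, with a ratio of 3.39 (3.16 to 3.64). These intervals compare a pair of libraries and cover counting error only, since reads carried no molecular identifiers.

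The other members differed less between the WT libraries. Timp3 had a ratio of 0.537 (0.513 to 0.562) and Mmp15 one of 0.613 (0.494 to 0.760), both lower in WT replicate 2. Timp1 was higher there (1.44, 1.25 to 1.66), and so was Timp2 (1.22, 1.16 to 1.28), while Mmp14 was close to level (1.02, 0.974 to 1.06). Mmp10 (1.20, 0.838 to 1.74) and Mmp13 (0.997, 0.485 to 2.09) had intervals that include 1 but are wide at these read numbers. Between the libraries labelled Nfat5-/-, the ratios ran from 0.932 for Timp1 to 1.69 for Timp3, with Mmp3 at 1.36 (1.05 to 1.76) and Mmp9 at 0.961 (0.891 to 1.04).

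**Figure D3:**
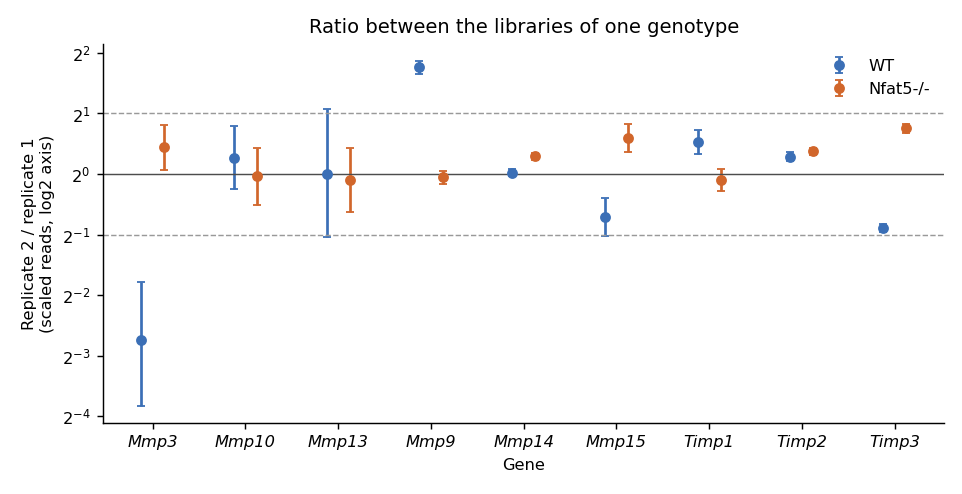
Ratio of replicate 2 to replicate 1 within each genotype for each member, in TMM-scaled reads on a log2 axis, with 95% exact binomial intervals that cover counting error only (dashed lines mark a 2-fold difference). Only Mmp3 (0.150) and Mmp9 (3.39) lie beyond the dashed lines, both in WT.

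Genes with the profiles most like those of Mmp3 and Mmp9 over the 4 libraries were taken from 9050 tested genes with a mean of at least 2 RPKM, by the Euclidean distance of centred log2 levels. Nearest to Mmp3 were Adm (distance 0.694), Edn2 (1.01), Psca (1.07), Crabp1 (1.07) and Nccrp1 (1.11, with 23.7% of exon reads unique). Adm, which encodes the peptide adrenomedullin, had 13.5 and 4.19 RPKM in WT against 21.7 and 26.6 RPKM in Nfat5-/-. Like Mmp3, these genes were lowest in WT replicate 2 and higher in both libraries labelled Nfat5-/-.

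Nearest to Mmp9 were Il18rap (0.400), Pagr1a (0.583), Csf1 (0.632), Ctla2b (0.636) and Dok2 (0.647). All 5 were highest in WT replicate 2. Il18rap, a chain of the interleukin 18 receptor, had 1.25 and 4.95 RPKM in WT against 1.20 and 1.22 RPKM in Nfat5-/-. Csf1, the growth factor of macrophages, had 23.8 and 50.4 RPKM in WT against 30.5 and 25.6 RPKM in Nfat5-/-. Pagr1a (1.34% of exon reads unique) and Ctla2b (14.5%) share most of their reads with other genes. With 4 libraries such likeness is a description of these samples.

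The chromosome 9 cluster that holds Mmp13, Mmp3 and Mmp10 was next taken gene by gene, as the plot of reads by position shows. It comprises 10 MMP genes over 427 kb on GRCm38, in the order Mmp13, Mmp12, Mmp1b, Mmp3, Mmp1a, Mmp10, Mmp8, Mmp27, Mmp20 and Mmp7. The last 4 had 0 reads in every library, and Mmp1a had 1 read in all. A count of 0 allows up to 3 reads, or 0.128 to 0.185 CPM (reads scaled to library size) in these libraries. Of the 5 cluster genes tested, Mmp13 passed the edgeR test and the others did not, against 1.27% of all genes tested called in either direction. Mmp1b, a collagenase-like gene of rodents, had 39 and 46 reads in WT and 20 and 7 in Nfat5-/-, the opposite direction to Mmp13 (log2 fold change -1.82, SE 0.43, edgeR adjusted p 0.106). Of these reads 63.4% lay in introns, which left 9, 20, 8 and 4 exon reads, so the value is not one of spliced Mmp1b RNA alone. Mmp12, macrophage elastase, had 6, 26, 14 and 19 reads, fewest in WT replicate 1 (log2 fold change -0.02, edgeR adjusted p 0.995). Introns held 50.8% of them, and the exon reads, 2, 7, 9 and 14, gave 0.0294 and 0.0772 RPKM in WT against 0.0913 and 0.179 RPKM in Nfat5-/-, which did not overlap. Mmp12 and Mmp1b overlap at their ends on opposite strands, so reads there cannot be assigned with certainty. The AP-1 motif was found in the windows of 7 of the 10 cluster genes, namely Mmp12, Mmp1a, Mmp1b and Mmp7 beside the 3 members, so genes with the motif included Mmp7 without reads, Mmp13, which was called higher, and Mmp1b, whose log2 fold change was negative.

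**Figure D4:**
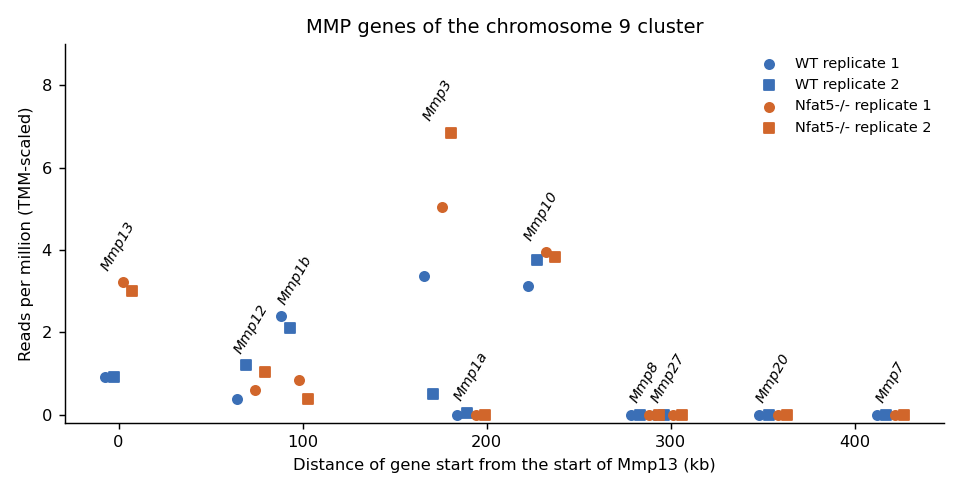
TMM-scaled CPM for the 10 MMP genes of the cluster, by the distance of the gene start from that of Mmp13 in kb, with points of the 4 libraries set slightly apart. Genes beyond Mmp10 have no reads, and Mmp13 and Mmp3 are higher and Mmp1b lower in the libraries labelled Nfat5-/- than in WT, of which Mmp13 passed the edgeR test.

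MMP and TIMP levels were also summed per library, since the sum of inhibitors is often set against that of proteases. The 6 MMP genes summed to 58.2 and 99.1 RPKM in WT and to 66.3 and 73.0 RPKM in Nfat5-/-, and the 3 TIMP genes to 114 and 106 RPKM in WT and to 102 and 127 RPKM in Nfat5-/-. The ratio of these sums was 0.511 and 0.933 in WT against 0.651 and 0.577 in Nfat5-/-, so that the genotypes overlapped. The TIMP sum was above that of the 6 MMP genes in every library. Other MMP genes with reads, such as Mmp25 (7.28 RPKM in WT replicate 2) and Mmp2 (3.36 RPKM there), are not in the sum. The order of all MMP and TIMP RNA is therefore not given. Mmp9 and Mmp14 made up 86.3% to 95.9% of the MMP sum. The ratio therefore followed Mmp9, which took 58.9% of it in WT replicate 2 and 25.7% to 30.2% in the other libraries. Without Mmp9 the ratio was 0.361 and 0.383 in WT and 0.454 and 0.428 in Nfat5-/-. As the Mmp9 gap between the WT libraries was known beforehand, nothing is read from the order of these ratios. They too lack the MMP genes outside the members. With unique exon reads in place of all exon reads, the MMP to TIMP ratio was 1.16 and 1.61 in WT and 0.957 and 0.895 in Nfat5-/-. That count keeps only 5.20% to 6.32% of the Timp3 exon reads and 40.9% to 46.2% of those of Timp1. Nothing is therefore read from it about the balance.

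The makeup of the inhibitor sum differed between the libraries as well. Timp2 made up 34.0% and 44.5% of the TIMP sum in WT and 54.0% and 55.0% in Nfat5-/-. Timp3 made up 48.0% and 27.7% in WT and 19.4% and 25.8% in Nfat5-/-. In both cases the genotypes did not overlap, in opposite directions. These shares rest on all exon reads, of which only 5.20% to 6.32% for Timp3 and 40.9% to 46.2% for Timp1 were unique. With unique exon reads they would differ. The level of Mmp14 relative to Timp2 was 0.904 and 0.775 in WT and 0.691 and 0.635 in Nfat5-/-, and that of Mmp9 relative to Timp1 was 0.837 and 1.97 in WT and 0.741 and 0.770 in Nfat5-/-. These sums and ratios of RNA were not tested and say nothing of the amounts of active enzyme.

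**Figure D5:**
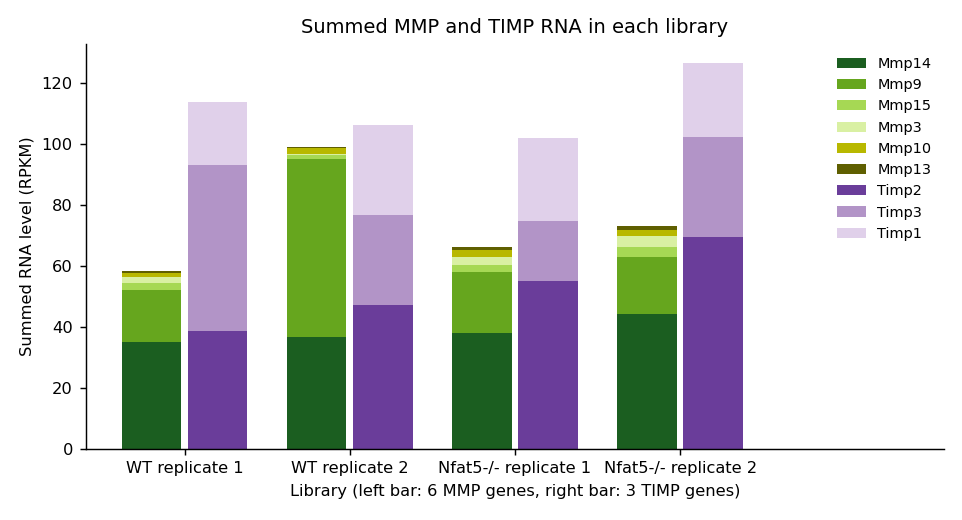
Summed RNA level in RPKM of the 6 MMP genes (left bar, greens) and the 3 TIMP genes (right bar, purples) in each library, stacked by gene. From all exon reads the TIMP bar is the higher in every library (not so in WT with unique exon reads, which drop most Timp3 and Timp1 reads). The Mmp9 part is large in WT replicate 2, and the Timp2 part is larger in both libraries labelled Nfat5-/-.

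The 18 other MMP and TIMP genes of the mouse that were listed all lay below the high set of members in RNA level. The highest was Mmp25, with 8.15 and 7.28 RPKM in WT against 6.66 and 6.32 RPKM in Nfat5-/-. It was above Mmp15, Mmp3, Mmp10 and Mmp13 in every library. Of the 18 genes 5, including Timp4, had 0 reads in every library and 8 could be tested. None passed the edgeR test, and 2 of the 8, Mmp1b and Mmp2, had an unadjusted p under 0.05, against 14.6% of all genes tested. DESeq2 called 0 of the 8, and limma 0 of the 4 it could test. In RPKM 4 of the 8 were lower in Nfat5-/- without overlap and 1 was higher, against 25% and 21.6% of all genes tested. Of the 8 tested genes, 6 had a log2 fold change below 0, with a median of -0.17 against -0.01 over all genes, from -1.82 for Mmp1b to 0.36 for Mmp11. Mmp2, gelatinase A, the zymogen of which is activated by Mmp14 and Timp2, had 4.83 and 3.36 RPKM in WT against 2.82 and 2.48 RPKM in Nfat5-/- (log2 fold change -0.57, SE 0.21, edgeR adjusted p 0.283).

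Genes of the proteins that activate, dock or clear MMPs formed a list of 27, among them plasminogen activators, convertases, cathepsins and sheddases. Of the 26 tested, 2 passed the edgeR test and were higher in the libraries labelled Nfat5-/-, against 1.27% of all genes in either direction, and the median log2 fold change was 0.14. Lcn2, which encodes lipocalin 2, rose from 0.584 and 0.329 to 5.71 and 5.47 RPKM (log2 fold change 3.60, SE 0.30, edgeR adjusted p 0.00579). Serpine2, an inhibitor of plasminogen activators, rose from 3.85 and 3.22 to 8.22 and 11.3 RPKM (log2 fold change 1.49, SE 0.21, edgeR adjusted p 0.0252). The study names Lcn2 from these same libraries, so its place in the list is not independent evidence. Plau, the urokinase gene, had 365 and 707 RPKM in WT against 634 and 642 RPKM in Nfat5-/-. The count of 2 fell to 0 without Nfat5-/- replicate 1 and without Nfat5-/- replicate 2, and rose to 6 without WT replicate 2.

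Transcription factor genes of the AP-1, ETS, RUNX and NF-kappa-B families, which are known to act at MMP promoters, formed a list of 16, all tested. Fos passed the edgeR test and was higher in the libraries labelled Nfat5-/-, at 10.7 and 10.2 RPKM in WT against 17.1 and 17.8 RPKM in Nfat5-/- (log2 fold change 0.76, SE 0.11, edgeR adjusted p 0.0319). The other 15 did not pass (0.943% of all genes were higher), the median of the list was 0.01 and the lowest value was that of Atf3 (-0.31). Of the 16 genes, 5 had an unadjusted p under 0.05 (14.6% of all genes tested) and 5 were higher in Nfat5-/- without overlap in RPKM (21.6%), with Fos, Fosl1, Fosl2 and Elf3 in both counts. The call of Fos was lost without Nfat5-/- replicate 1, without Nfat5-/- replicate 2 and with a block for the replicate number, each of which gave 0 called genes.

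Genes of matrix and adhesion proteins that MMPs are known to cut moved in both directions. Of 20 listed, 18 were tested, of which 2 passed the edgeR test as higher (0.943% of all genes) and 2 as lower (0.325%) in Nfat5-/-, with a median log2 fold change of 0.37. Nid1, which encodes the basement membrane linker nidogen 1, rose from 8.76 and 10.5 to 26.2 and 24.6 RPKM (log2 fold change 1.42, SE 0.12, edgeR adjusted p 0.00579). Dsg1a, a desmosomal cadherin of differentiated KCs, rose at a low level, from 0.148 and 0.103 to 0.489 and 0.755 RPKM (edgeR adjusted p 0.0416), with 71.6% of exon reads unique. Lamb3 and Lama3, which encode chains of laminin 332, the anchoring laminin beneath basal KCs, were lower. Lamb3 fell from 397 and 429 to 190 and 204 RPKM (log2 fold change -1.05, SE 0.10, edgeR adjusted p 0.0123), and Lama3 from 142 and 172 to 87.1 and 96.5 RPKM (log2 fold change -0.75, SE 0.13, edgeR adjusted p 0.0452). Fn1, the fibronectin gene, which the study names from these libraries, had 33.8 and 55.0 RPKM in WT against 114 and 221 RPKM in Nfat5-/-, with an edgeR adjusted p of 0.05001 that lay just above the threshold (log2 fold change 1.94, SE 0.34). It passed with RLE factors, library totals and DESeq2. The count of 4 became 1 without Nfat5-/- replicate 1 and without Nfat5-/- replicate 2, namely Col4a1 and Lamb3, respectively. With a block for the replicate number it stayed 4, but Dsg1a was lost and Fn1 gained.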

How the data were processed

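Polyadenylated RNA of 4 KC libraries (2 WT, 2 Nfat5-/-) was sequenced. The authors aligned the reads to GRCm38 with the CLC Genomics Workbench 12.0 and deposited read counts per gene, not normalized, together with RPKM values. From the deposited counts of total gene reads, genotypes were compared with edgeR 4.0.16 in R 4.3.3 (filterByExpr, TMM factors, quasi-likelihood, genotype only, two-sided, Benjamini-Hochberg over all genes tested, threshold 0.05). SEs were derived from the F statistics. The deposited RPKM values served for levels between genes. Depth of 16219445 to 23494436 gene reads sets a floor of 3 reads at 0.128 to 0.185 CPM, for counting error only. Members and lists were chosen with earlier results of these data known. Named genes are the members, list genes past the threshold or with the largest rise or fall of their list, and the 5 nearest profiles of Mmp3 and Mmp9. Plau, Fn1, Mmp2 and other genes beyond that rule, markers aside, were chosen with their values known or lie in the cluster. Same-numbered libraries did not deviate together (correlation -0.0652 over 12614 genes). Some list genes are not reported here. Alternatives were other scaling factors and filters, DESeq2 1.42.0, limma 3.58.1 on log2(RPKM + 1) and log2(RPKM + 0.1), exon, single-site exon and junction reads (junction reads added after the data were seen), a replicate block and each library left out. Procedures were tested on simulated counts. Gene positions are those of the deposited tables, and all 9 members have the same start and end in GENCODE M21. Start regions are from RefSeq (GRCm38.p6).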

Additional observations from a re-analysis of the deposited data

How the results depend on the processing

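The number of members called was 1 with RLE factors, library totals, at least 10 reads in every library, exon reads and single-site exon reads, Mmp13 each time. It was 6 with no filter, 2 with DESeq2 (Mmp13, Timp2), and 0 with limma on either RPKM scale and with junction reads, which did not test Mmp13, and 0 with the replicate block. It ranged from 0 to 2 with a library left out: 2 without WT replicate 1 (Mmp3, Mmp9), 1 without WT replicate 2 (Timp3) and 0 without either library labelled Nfat5-/-, the lone library of a genotype being assumed to vary like the other pair. With no filter the members called were Mmp3 (1.68), Mmp9 (-0.95), Mmp13, Mmp15 (0.62), Timp2 (0.56) and Timp3 (-0.66), but 1137 of 18043 genes (6.30%) were then called, against 160 of 12614 (1.27%). DESeq2 called 427 genes, and counts without 1 library ranged from 16 (Nfat5-/- replicate 2) to 478 (WT replicate 2), with 31 without Nfat5-/- replicate 1 and 268 without WT replicate 1. The labels do not say whether equal replicate numbers pair the libraries, and the correlation given above does not decide it. The replicate block gave 132 calls, 109 of them shared, and raised the adjusted p of Mmp13 (1.75, edgeR adjusted p 0.0846) and those of Fos and Dsg1a above the threshold, while Fn1 passed. It changed no other member's call. Timp2 under DESeq2 had a log2 fold change of 0.56.

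With a library left out, log2 fold changes ranged from 0.81 to 3.54 for Mmp3, -1.56 to 0.19 for Mmp9 (0.19 without WT replicate 2), 1.70 to 1.80 for Mmp13 and -1.08 to -0.14 for Timp3. Timp1 ranged from -0.18 to 0.34, turning to -0.18 without WT replicate 1 and to -0.0016 without Nfat5-/- replicate 1. The cause of these changes was not tested. Called genes of the other MMP and TIMP list were 2 with no filter. Activation and clearance genes gave 7 with no filter, 4 with DESeq2 and 0 to 6 with a library left out. Transcription factor genes gave 4 with no filter, 2 with DESeq2, 0 with junction reads or the replicate block, and 0 to 1 with a library left out. Substrate genes gave 12 with no filter, 8 with DESeq2 and 1 to 6 with a library left out. With single-site exon reads the Timp3 ratio between the WT libraries was 0.605, and the MMP to TIMP ratios were 1.16, 1.61, 0.957 and 0.895. That count drops most Timp1 and Timp3 reads. From all exon reads but without Mmp9, the MMP to TIMP ratios were 0.361 and 0.383 in WT and 0.454 and 0.428 in Nfat5-/-. With 2 libraries a genotype, Mmp13 with 15 to 76 reads and Mmp3 with 11 to 125 are at the low end of what this depth resolves.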
